A study of Mus musculus with 12 samples.

Results

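Aminoacyl-tRNA synthetases are the enzymes that load each tRNA with its amino acid, and their genes were followed here in CD8 T cells with and without Ezh2, before and after activation. Members were the genes whose deposited symbol is a synthetase name, that is 1 amino acid letter followed by "ars" or "ars2", or Farsa, Farsb or Eprs, measured by a probe set assigned to that gene alone. This rule found 37 of the 20962 genes measured, with 70 probe sets. Assignment to a single gene follows the deposited annotation. It does not exclude cross-hybridization, which deposited notes name for some of these probe sets. Of the 37, 18 encode cytosolic enzymes, 17 encode mitochondrial enzymes, and Gars and Kars each encode the enzyme of both compartments. The naming rule used no measured value, but the members were chosen with earlier results of these data known.

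The samples came from 6 male C57BL/6 mice aged 4 weeks, with 3 mice per genotype and 3 arrays in each of 4 groups. Knockout mice carried floxed alleles of Ezh2, the catalytic subunit of the histone methyltransferase PRC2, and expressed Cre from a CD4 promoter, so that deletion was not limited to CD8 cells or to the time of activation. Wild-type mice had intact Ezh2. CD8 cells of spleen and lymph nodes were isolated with anti-CD8 magnetic beads to a stated purity over 93%, and each mouse gave 1 activated and 1 naive sample. The groups were therefore activated knockout (mice 4 to 6), activated wild type (mice 1 to 3), naive knockout (mice 4 to 6) and naive wild type (mice 1 to 3). Activated cells had been cultured for 3 days on plate-bound anti-CD3 with a further antibody, named anti-CD28 in the series description and anti-CD38 in the sample labels, and naive cells were freshly isolated. No array held cells cultured without stimulation, so stimulation, culture and handling cannot be told apart. All values below are the deposited log2 intensities, and a difference of 1 is a 2-fold change. In RNA from bulk cells, fewer cells of a type and less RNA per cell cannot be told apart.

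Each synthetase first joins its amino acid to AMP and then transfers it to the matching tRNA, which elongation factors carry to the ribosome. The cytosolic and mitochondrial translation systems use separate enzymes in most cases, all encoded in the nucleus. In animal cells, several cytosolic synthetases sit in a large multi-synthetase complex held together by the scaffold proteins Aimp1, Aimp2 and Eef1e1. Amino acid shortage activates the factor ATF4, which binds elements with the core TGATGNAA, and several synthetase genes are known ATF4 targets. The E-box CACGTG is bound by Myc and related factors.

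Promoter sequences were set beside the expression data because the members that moved together share a function. RefSeq promoters (GRCm38.p6, 250 bases before to 50 after the start) were matched for 27 of the 37 members. TGATGNAA was found on either strand in 5 of 13 matched genes of cytosolic or dual enzymes (Aars, Gars, Iars, Tars and Yars) and in 0 of 14 matched genes of mitochondrial enzymes, against 4.51% of all 27025 genes with a promoter. CACGTG was found in 4 of the 13 (Aars, Farsb, Iars and Tars) and in 1 of the 14 (Ears2), against 8.09% of all genes. A match describes letters in this window and not a bound site. The genes without a matched promoter included Cars, Hars, Hars2, Lars, Nars, Pars2, Rars, Vars and Wars. The stretches that hold most of these matches follow, 5′ to 3′ along each gene, with the matches in capitals. No matches overlap, and a TGATGNAA match on the opposite strand reads TTGCATCA or TTTCATCA. The lines give Aars (chr8:111033682-111033781, plus strand), with both motifs, then Gars (chr6:55037901-55038000, plus), Tars (chr15:11399659-11399758, minus), Iars (chr13:49682030-49682129, plus) and Farsb (chr1:78488898-78488997, minus), each ending 1 base before the annotated start except Aars. The last lines are the first 28 transcribed bases of Iars (chr13:49682130-49682157, plus) and Yars (chr4:129189903-129189930, plus).
Aars: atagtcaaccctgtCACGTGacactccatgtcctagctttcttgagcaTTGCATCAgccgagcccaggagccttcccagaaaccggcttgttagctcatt
Gars: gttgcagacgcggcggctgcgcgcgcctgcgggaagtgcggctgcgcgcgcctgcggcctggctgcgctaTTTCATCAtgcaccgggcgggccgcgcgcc
Tars: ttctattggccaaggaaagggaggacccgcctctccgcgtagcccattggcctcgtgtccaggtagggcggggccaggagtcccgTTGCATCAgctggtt
Iars: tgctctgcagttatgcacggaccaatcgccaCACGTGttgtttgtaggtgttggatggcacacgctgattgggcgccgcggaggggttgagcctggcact
Farsb: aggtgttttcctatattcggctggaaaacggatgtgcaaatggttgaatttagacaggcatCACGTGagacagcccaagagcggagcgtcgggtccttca
Iars: gtcagtaTTGCATCAcctccagacgcgg
Yars: agcTGATGCAAcccgacgggactagcgt

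Array medians lay between 0.905 and 0.976. Ezh2 averaged 3.36 ± 0.57 in activated knockout and 5.39 ± 0.15 in activated wild-type arrays (SD, n = 3 each), a limma difference of -2.02 ± 0.20 (SE) with an adjusted p of 4.09e-05. In naive cells, where Ezh2 averaged 2.09 ± 0.12 in knockout and 2.30 ± 0.13 in wild type (SD, n = 3 each), the difference of -0.20 ± 0.20 did not pass (adjusted p = 0.845). No source used here says which exons are deleted or whether the probes lie in them. The labelled cell type was checked with 8 CD8 T-cell markers, whose mean lay between 5.46 and 6.51 on every array. Several of these, such as Cd3e and Lck, are not limited to CD8 cells. The mean of 5 CD4 and regulatory T-cell markers lay at 1.55 to 1.70 in activated knockout and 1.78 to 1.90 in activated wild-type arrays. In naive arrays it lay at 1.66 to 1.85 in knockout and 1.88 to 1.98 in wild type. In each state 1 of the 5 was lower in knockout. The arrays also differed in markers of other cells. The mean of 12 B-cell markers lay at 1.23 to 1.27 in activated knockout, 1.27 to 1.29 in activated wild type, 2.16 to 2.45 in naive knockout and 2.97 to 3.01 in naive wild-type arrays, and that of 10 myeloid markers lay at 0.79 to 0.96 in activated knockout, 0.81 to 0.90 in activated wild type, 0.93 to 0.99 in naive knockout and 1.16 to 1.28 in naive wild type. The median of all probe sets was 0.942, so myeloid means near or below it show neither presence nor absence of these cells. The part of B, myeloid and CD4 cells in the results below was not tested.

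Activation came with higher RNA of every cytosolic synthetase in both genotypes, while few mitochondrial synthetases passed the test. In knockout cells, 20 of 20 genes of cytosolic or dual enzymes rose with activation, by a median log2 difference of 1.38 and by 0.50 to 2.23, and 12 of them rose at least 2-fold. In wild-type cells 20 of 20 rose as well, by a median of 1.71 and by 0.57 to 2.72, and 15 rose at least 2-fold. Among the 17 mitochondrial genes, 2 rose in knockout cells (median -0.04) and 1 rose in wild-type cells (median 0.05), and none fell in either. Over all 37 members this made 22 higher and 0 lower in knockout cells and 21 higher and 0 lower in wild-type cells (limma, Benjamini-Hochberg adjusted p under 0.05), with 25 in knockout and 24 in wild-type cells at an unadjusted p under 0.05 in either direction, against 34.6% of all genes in knockout and 35.7% in wild-type cells. Of all genes tested, 15.8% were higher and 10.9% lower in activated than naive knockout cells, and 14.8% were higher and 11.9% lower in activated than naive wild-type cells, with all-gene medians of -0.02 in knockout and -0.034 in wild-type cells. Among the 12164 genes brighter than the median of all probe sets, 26.2% were higher in activated knockout and 25.0% in activated wild-type cells. The B-cell markers moved the other way, with 9 of 12 lower in activated than naive knockout cells and 11 of 12 lower in activated than naive wild-type cells. Of the CD8 T-cell markers, 7 of 8 were lower and 1 higher in activated than naive knockout cells (list median -1.05), and 5 of 8 were lower and 1 higher in wild-type cells (-0.66), while 1 of 10 myeloid markers was lower in knockout and 3 of 10 in wild-type cells. Their part in the activation results was not tested.

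**Figure D1:**
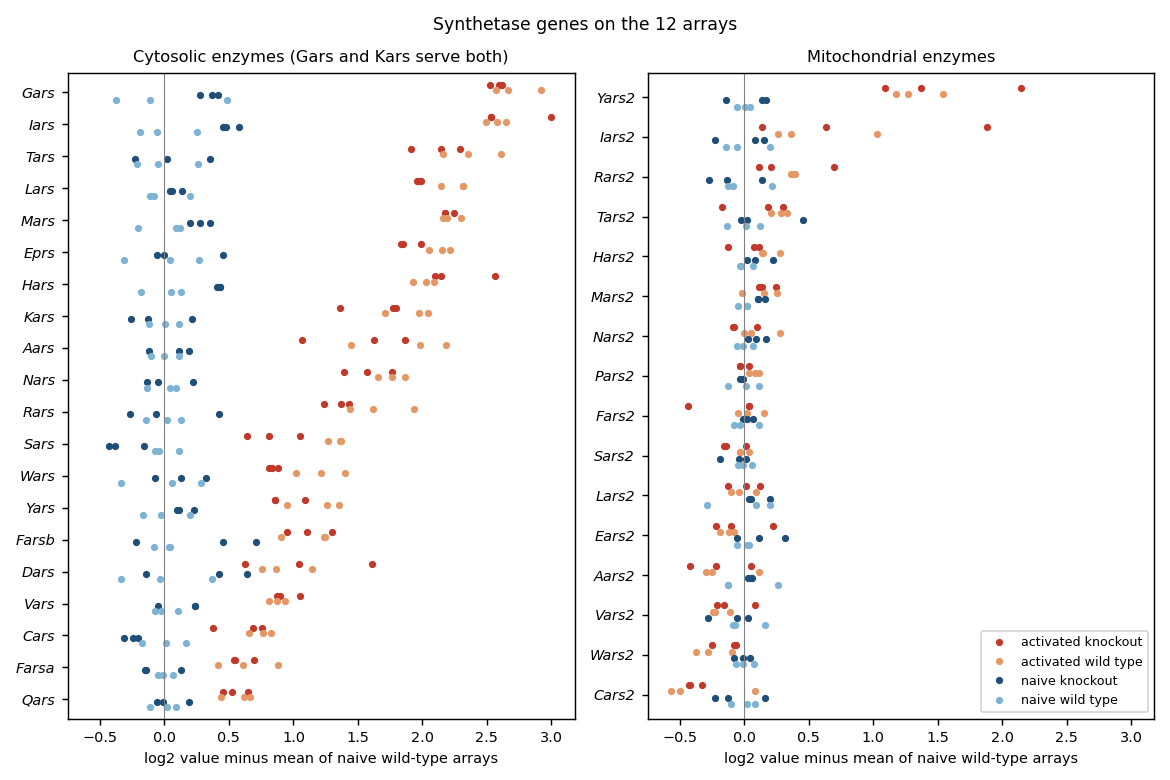
Each point is 1 array, plotted as its log2 value minus the gene's mean on the naive wild-type arrays; the left panel holds the 20 genes of cytosolic or dual enzymes and the right panel 16 of the mitochondrial genes, each ordered by the wild-type response. The activated arrays lie right of the naive arrays for nearly every gene on the left, and for few genes besides Yars2 on the right.

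Gars, the glycyl-tRNA synthetase of cytosol and mitochondria, had the highest response of all members in both genotypes over the brightest probe set of each gene. It read 5.60, 5.62 and 5.53 in activated knockout and 5.92, 5.57 and 5.67 in activated wild-type arrays, against 3.42, 3.37 and 3.28 in naive knockout and 2.89, 3.49 and 2.63 in naive wild-type arrays. The activated arrays lay more than 2 log2 units above the naive arrays of the same genotype. The rise was 4.69-fold in knockout cells (2.23 ± 0.16 SE, adjusted p = 4.05e-08) and 6.57-fold in wild-type cells (2.72 ± 0.16, adjusted p = 5.52e-09, limma throughout). The second probe sets of Iars and Aars rose more than Gars, by 2.75 and 2.65 in knockout and by 2.92 and 2.80 in wild-type cells.

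Iars, the isoleucyl enzyme of the complex, was next over the brightest probe sets. It read 7.08, 7.08 and 7.55 in activated knockout, 7.13, 7.20 and 7.04 in activated wild-type, 5.00, 5.03 and 5.13 in naive knockout and 4.36, 4.80 and 4.49 in naive wild-type arrays. Activated and naive values did not overlap, and the rise was 4.54-fold in knockout (2.18 ± 0.13) and 5.96-fold in wild-type cells (2.58 ± 0.13). Tars, the cytosolic threonyl enzyme, read 4.09, 4.32 and 4.47 in activated knockout, 4.79, 4.34 and 4.53 in activated wild-type, 2.53, 2.20 and 1.95 in naive knockout and 2.13, 2.44 and 1.97 in naive wild-type arrays. All activated arrays lay above all naive arrays, and the differences were 2.07 ± 0.16 in knockout and 2.37 ± 0.16 in wild-type cells.

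Lars and Mars, the leucyl and methionyl enzymes, also belong to the complex, and Mars charges the initiator tRNA as well. Lars read 4.79, 4.80 and 4.77 in activated knockout, 5.13, 4.96 and 5.13 in activated wild-type, 2.87, 2.95 and 2.86 in naive knockout and 2.70, 3.01 and 2.73 in naive wild-type arrays. Its activated knockout arrays all lay below its activated wild-type arrays, and it rose by 1.90 ± 0.09 in knockout and by 2.26 ± 0.09 in wild-type cells. Mars read 6.02, 6.02 and 6.09 in activated knockout, 6.14, 6.00 and 6.03 in activated wild-type, 4.20, 4.04 and 4.12 in naive knockout and 3.93, 3.64 and 3.96 in naive wild-type arrays. The 6 activated values lay within a narrow band, and the rises were 1.92 ± 0.09 in knockout and 2.22 ± 0.09 in wild-type cells.

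Eprs joins the glutamyl and prolyl activities in 1 protein of the complex. It read 5.52, 5.38 and 5.36 in activated knockout, 5.68, 5.58 and 5.74 in activated wild-type, 3.53, 3.98 and 3.47 in naive knockout and 3.22, 3.80 and 3.57 in naive wild-type arrays. Again all activated arrays lay above all naive arrays, with rises of 1.76 ± 0.14 in knockout and 2.14 ± 0.14 in wild-type cells. Hars, the cytosolic histidyl enzyme, read 5.29, 5.25 and 5.71 in activated knockout, 5.24, 5.18 and 5.08 in activated wild-type, 3.58, 3.56 and 3.58 in naive knockout and 3.28, 2.97 and 3.20 in naive wild-type arrays. Hars rose by 1.84 ± 0.12 in knockout and by 2.02 ± 0.12 in wild-type cells. It lay higher in knockout than in wild-type arrays in both states, but in activated cells only narrowly (5.25 against 5.24), and neither difference passed. In activated cells the limma difference was 0.25 ± 0.12 (adjusted p = 0.49), and that of the second Hars probe set was 0.07 ± 0.11. Kars, the lysyl enzyme of both compartments and a member of the complex, read 4.07, 4.05 and 3.64 in activated knockout, 4.32, 3.99 and 4.25 in activated wild-type, 2.02, 2.49 and 2.15 in naive knockout and 2.28, 2.16 and 2.39 in naive wild-type arrays. Its groups separated by state and overlapped by genotype, with rises of 1.70 ± 0.14 in knockout and 1.91 ± 0.14 in wild-type cells.

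The other genes of cytosolic enzymes rose less over the brightest probe sets, though another probe set of Aars and one of Wars rose more than Kars in both genotypes. The alanyl enzyme Aars rose by 1.45 ± 0.19 in knockout and 1.87 ± 0.19 in wild-type cells, the asparaginyl enzyme Nars by 1.56 ± 0.12 in knockout and 1.76 ± 0.12 in wild-type cells, and the arginyl enzyme Rars by 1.31 ± 0.16 in knockout and 1.66 ± 0.16 in wild-type cells. The phenylalanyl enzyme is built from subunits encoded by Farsa and Farsb, which rose by 0.65 ± 0.11 and 0.80 ± 0.18 in knockout and by 0.63 ± 0.11 and 1.13 ± 0.18 in wild-type cells. The seryl, tyrosyl, valyl and cysteinyl enzymes Sars, Yars, Vars and Cars rose by 1.16, 0.79, 0.80 and 0.86 in knockout and by 1.33, 1.18, 0.87 and 0.74 in wild-type cells. Dars, the aspartyl enzyme, was the member whose groups overlapped in knockout cells, with 3.35, 2.93 and 3.91 in activated knockout against 2.16, 2.94 and 2.73 in naive knockout arrays. Its rise of 0.79 ± 0.24 (adjusted p = 0.0215) did not pass without naive knockout mouse 4 (adjusted p = 0.115) or without activated knockout mouse 6 (adjusted p = 0.106). Taking each mouse's activated minus its naive array, 19 of the 20 genes were higher in all 6 mice, and the exception was Dars in mouse 5. No share of all genes was set beside this count. Qars, the glutaminyl enzyme, had the smallest rise of the 20, 0.50 ± 0.10 in knockout and 0.57 ± 0.10 in wild-type cells. With the mean of all Qars probe sets, the knockout difference was 0.20 with an adjusted p of 0.0916.

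The 8 members of the multi-synthetase complex (Dars, Eprs, Iars, Kars, Lars, Mars, Qars and Rars) rose by a median of 1.73 in knockout and 2.02 in wild-type cells, and the 12 genes outside it by 1.01 in knockout and 1.27 in wild-type cells. The ranges overlapped, since Qars lay lowest inside and Gars highest outside the complex. By catalytic fold, the 10 class II genes rose by a median of 1.51 in knockout and 1.81 in wild-type cells and the 9 class I genes by 0.86 in knockout and 1.21 in wild-type cells, with Eprs, which holds both folds, in neither. These splits rest on the brightest probe set of each gene and were not tested. The scaffold genes rose as well: Eef1e1 by 2.75 ± 0.16 in knockout and 2.81 ± 0.16 in wild-type cells, Aimp2 by 1.56 ± 0.14 in knockout and 2.00 ± 0.14 in wild-type cells, and Aimp1 by 0.68 ± 0.13 in knockout and 0.66 ± 0.13 in wild-type cells.

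Among the mitochondrial genes, Yars2, the tyrosyl enzyme of mitochondria, rose in both genotypes. It read 2.38, 2.66 and 3.44 in activated knockout, 2.83, 2.56 and 2.47 in activated wild-type, 1.15, 1.43 and 1.46 in naive knockout and 1.24, 1.34 and 1.30 in naive wild-type arrays. Activated values lay above naive values throughout, with rises of 1.48 ± 0.20 in knockout (adjusted p = 2.44e-05) and 1.32 ± 0.20 in wild-type cells (adjusted p = 8.25e-05). Its second probe set rose less, by 0.56 ± 0.13 in knockout and 0.68 ± 0.13 in wild-type cells.

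Rars2, the mitochondrial arginyl enzyme, read 2.04, 2.53 and 1.95 in activated knockout against 1.70, 1.97 and 1.56 in naive knockout arrays, which overlap. It passed in knockout cells at 0.43 ± 0.14 (adjusted p = 0.038) and stood at 0.38 ± 0.14 in wild-type cells (adjusted p = 0.0656). With the mouse as a block, the wild-type difference passed too (adjusted p = 0.0125). The knockout call was lost without activated wild-type mouse 1 or 3, naive knockout mouse 4 or 6, or activated knockout mouse 5 (adjusted p between 0.0507 and 0.195), and in a fit of only the arrays compared (0.0937). Iars2, the mitochondrial isoleucyl enzyme, read 2.21, 2.70 and 3.95 in activated knockout against 1.84, 2.22 and 2.15 in naive knockout arrays, so that 1 array, mouse 6, stood well above the rest. The difference was 0.88 ± 0.32 in knockout cells (adjusted p = 0.0534) and 0.55 ± 0.32 in wild-type cells (adjusted p = 0.238). The knockout difference passed with the mouse as a block (adjusted p = 0.0128), with centred arrays (0.0476), only bright genes (0.0273), an intensity trend and robust variances (0.0472) or the mean of its probe sets (0.0313), and without activated wild-type mouse 1 (0.0471). Without activated knockout mouse 4 it was 1.26 (adjusted p = 0.00487), and without activated knockout mouse 6, the array that stood apart, it was 0.39 (adjusted p = 0.218).

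The lowest differences in wild-type cells belonged to Cars2, Wars2 and Vars2, the mitochondrial cysteinyl, tryptophanyl and valyl enzymes. Cars2 read 1.40, 1.5 and 1.41 in activated knockout, 1.91, 1.26 and 1.33 in activated wild-type, 1.70, 1.60 and 1.99 in naive knockout and 1.73, 1.91 and 1.85 in naive wild-type arrays. Activated wild-type mouse 1 stood apart from the other arrays of its group, and the differences were -0.32 ± 0.15 in knockout and -0.33 ± 0.15 in wild-type cells. Without that array both passed as lower, at -0.32 in knockout (adjusted p = 0.0324) and -0.54 in wild-type cells (adjusted p = 0.00318). Wars2 read 1.37, 1.18 and 1.35 in activated knockout, 1.06, 1.34 and 1.15 in activated wild-type, 1.42, 1.35 and 1.48 in naive knockout and 1.37, 1.51 and 1.42 in naive wild-type arrays. The wild-type groups were narrowly separate, with a difference of -0.25 ± 0.09 that did not pass (adjusted p = 0.0579) but did with the mouse as a block (0.0472) and without activated wild-type mouse 2 (0.0224). Vars2 read 1.93, 1.88 and 2.17 in activated knockout, 1.85, 1.98 and 1.86 in activated wild-type, 2.12, 1.81 and 2.03 in naive knockout and 2.00, 2.25 and 2.02 in naive wild-type arrays. It differed by 0.01 ± 0.11 in knockout and -0.20 ± 0.11 in wild-type cells, and neither passed. A further 10 mitochondrial genes lay between -0.25 (Aars2) and 0.04 (Mars2) in knockout and between -0.15 (Aars2) and 0.27 (Tars2) in wild-type cells, and none passed. The mitochondrial probe sets had means over the 12 arrays of 0.59 to 2.43, and the other members 1.58 to 5.99, where the median of all probe sets was 0.942; whether the dimmer signals hid changes was not tested.

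**Figure D2:**
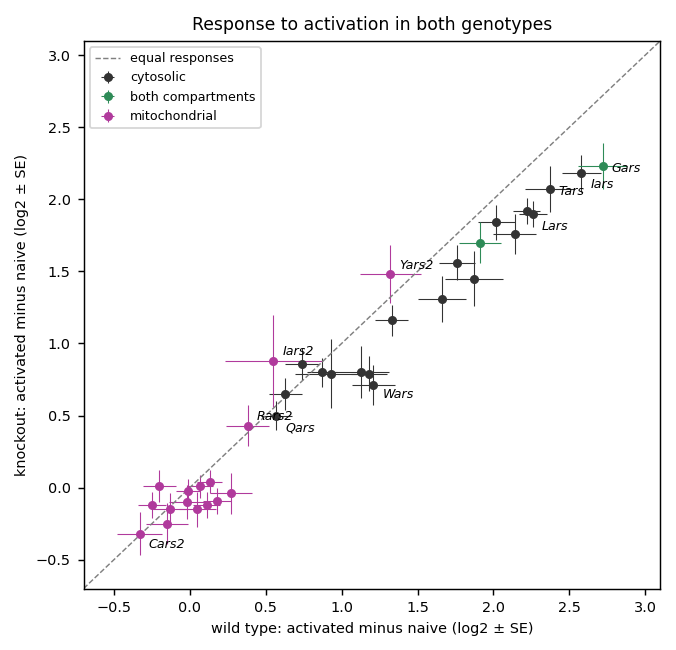
Activation response of 36 members in knockout cells (vertical axis) against wild-type cells (horizontal axis), both in log2 units with SE, by compartment of the enzyme; the dashed line marks equal responses. Most genes of cytosolic or dual enzymes sit to the upper right and below the line, and most mitochondrial genes sit near 0.

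Other genes that make, ready or use tRNA moved in part. Of all genes tested, 15.8% were higher and 10.9% lower in activated knockout cells, and 14.8% higher and 11.9% lower in activated wild-type cells. Among genes brighter than the median of all probe sets, 26.2% were higher in knockout and 25.0% in wild-type cells. Of 26 measured genes of tRNA maturation and export, 16 rose in activated knockout cells (list median 0.51) and 17 in activated wild-type cells (0.59), and none fell. The largest rises were Xpot, the tRNA export receptor, at 2.09 ± 0.12 in knockout and 2.28 ± 0.12 in wild-type cells, and the tRNA methyltransferase Nsun2 at 1.83 ± 0.18 in knockout and 2.20 ± 0.18 in wild-type cells. Next came enzymes that trim tRNA ends: Rpp30 and Elac2 rose by 1.02 and 0.99 in knockout cells, and Pop5, Rpp30, Rpp14 and Elac2 by 1.48, 1.30, 1.11 and 1.04 in wild-type cells. Of 20 genes of RNA polymerase III and its factors, which transcribe tRNA genes, 8 rose and 2 fell in both genotypes, the falls near the all-gene share. Polr3a, its largest subunit, rose by 1.24 ± 0.15 in knockout and 1.62 ± 0.15 in wild-type cells. Maf1, a repressor of this polymerase, fell by 0.57 in knockout and by 0.74 in wild-type cells, and Polr3gl, an alternative subunit, fell by 0.53 in knockout and by 0.46 in wild-type cells. Of 13 charging partners and editing enzymes, 4 rose in each genotype (Ppa1, Sephs2, Sephs1 and Aarsd1). Ppa1, the pyrophosphatase that removes a by-product of charging, rose by 2.70 ± 0.16 in knockout and 2.44 ± 0.16 in wild-type cells. Sephs2 and Sephs1, which belong to the selenophosphate synthetase family, rose by 1.97 and 0.68 in knockout and by 2.09 and 1.07 in wild-type cells. Of 9 elongation factors, Tufm, Gfm1 and Eef1d rose in knockout cells. In wild-type cells these and Eef1g rose while Gfm2 fell (by 0.23, adjusted p = 0.0475). Tufm and Gfm1, factors of mitochondrial translation, rose by 1.64 ± 0.10 and 1.34 ± 0.15 in knockout and by 1.56 ± 0.10 and 1.40 ± 0.15 in wild-type cells.

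Of 20 genes of the amino acid response, 16 rose in knockout (list median 1.02) and 15 in wild-type cells (1.43), and none fell. Asns, the asparagine synthetase, read 5.58, 5.66 and 5.45 in activated knockout, 5.70, 5.52 and 5.62 in activated wild-type, 0.87, 0.73 and 1.17 in naive knockout and 1.06, 1.05 and 1.16 in naive wild-type arrays. The rise was 4.64 ± 0.11 in knockout and 4.53 ± 0.11 in wild-type cells. Naive values lay near the array median and, with no detection calls in the files, are not shown to be above background, so the size of the rise is uncertain. The translation repressor Eif4ebp1, the leucine transporter subunit Slc7a5 and the serine synthesis enzyme Psat1 rose by 4.25, 3.73 and 3.53 in knockout and by 4.15, 3.62 and 4.25 in wild-type cells. Eif4ebp1 averaged 0.98 in naive knockout and 1.21 in naive wild-type arrays, also near the array median, so the size of its rise is uncertain too. RNA of Atf4, which is also controlled at translation, rose by 0.57 ± 0.09 in knockout and 0.52 ± 0.09 in wild-type cells.

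**Figure D3:**
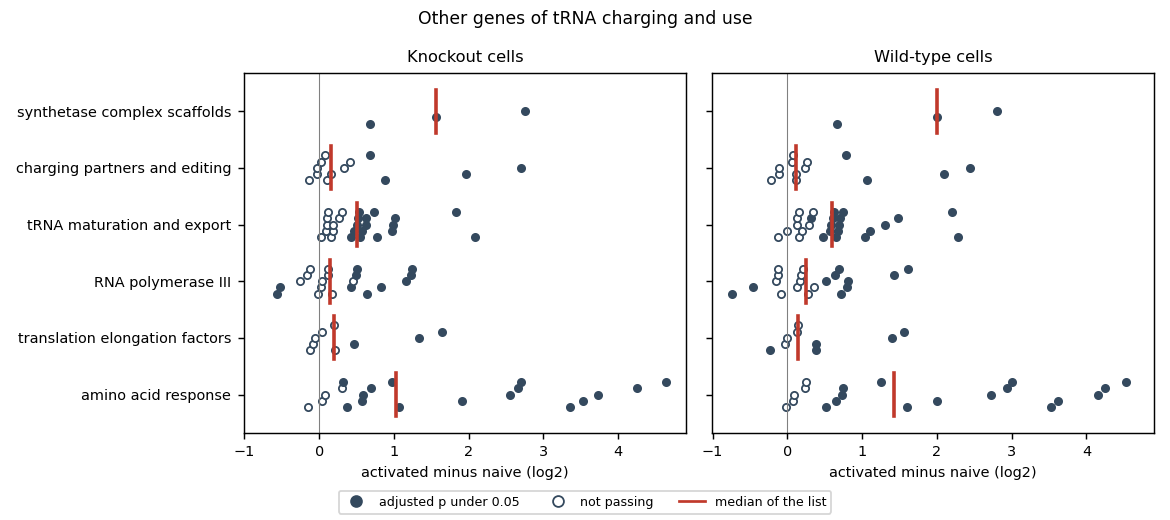
Each point is 1 gene of a list, plotted by its activated minus naive difference (log2) in knockout cells (left) and wild-type cells (right); filled points passed at an adjusted p under 0.05 and red bars mark list medians. All 3 scaffold genes rose in both genotypes, and the highest point of the amino acid response list is Asns, at 4.64 in knockout cells from naive values near the array median.

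Between genotypes, few members separated. In activated cells Sars, the seryl enzyme that also charges the selenocysteine tRNA, was lower in knockout than in wild type, and no other member passed. Sars read 5.79, 5.55 and 5.38 in activated knockout and 6.10, 6.01 and 6.11 in activated wild-type arrays, and 4.36, 4.31 and 4.58 in naive knockout and 4.85, 4.67 and 4.70 in naive wild-type arrays. Knockout arrays lay below wild-type arrays in both states without overlap. In activated cells the difference was -0.50 ± 0.11, so that wild type was 1.41-fold higher (adjusted p = 0.033), and in naive cells it was -0.33 ± 0.11 (adjusted p = 0.243). The activated call was lost in a fit of only the arrays compared (adjusted p = 0.097) and without activated wild-type mouse 1, 2 or 3 or activated knockout mouse 5 or 6 (adjusted p 0.0807 to 0.137). The second Sars probe set differed by -0.40 ± 0.09 in activated cells (adjusted p = 0.0505 over all probe sets) and by 0.00 ± 0.09 in naive cells.

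That 1 call of 37 compares with 1.32% of all genes called in activated cells in either direction and 0.372% called lower. Of the 20 genes of cytosolic or dual enzymes, 16 had estimates below 0 in activated cells (median -0.16, all-gene median 0.005). CD8 T-cell markers moved the same way, since 4 of 8 (Cd8a, Cd8b1, Cd3d and Lck) were lower in activated knockout than activated wild-type cells. Their list means were 5.46 to 5.65 in knockout and 5.76 to 5.87 in wild-type arrays. The list of 7 T-cell activation markers went the other way, at 6.78 to 6.87 in activated knockout and 6.54 to 6.60 in activated wild-type arrays. In that list 1 of 7 was higher in knockout and 0 lower (list median 0.32). The part of either list in the Sars result was not tested. In the amino acid response list, Trib3, a pseudokinase induced by ATF4, was lower in activated knockout cells. It read 2.10, 1.99 and 2.06 in activated knockout and 2.63, 2.71 and 2.76 in activated wild-type arrays, without overlap (-0.65 ± 0.11, adjusted p = 0.00576).

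In naive cells no member passed, against 1.09% of all genes, and 7 of 37 had an unadjusted p under 0.05, against 9.49% of all genes. The estimates were above 0 for 16 of the 20 genes of cytosolic or dual enzymes (median 0.10, all-gene median -0.006). The largest were Iars at 0.50 ± 0.13 (adjusted p = 0.0942), Hars at 0.43 ± 0.12 (0.123) and Gars at 0.35 ± 0.16 (0.514), from the chosen probe set of each gene. The second probe sets of Iars (0.24 ± 0.12, adjusted p = 0.632 over all probe sets) and Hars (0.13 ± 0.11, 0.836) gave smaller differences, and Gars has 1 probe set. From the array values above, Iars and Hars lay higher in every naive knockout than in every naive wild-type array, while Gars overlapped through naive wild-type mouse 2. Without that array Gars (0.60, adjusted p = 0.0286) and Iars (0.63, 0.0439) passed. Iars also passed with an intensity trend and robust variances (0.0355), and without activated knockout mouse 6 so did Iars (0.0248) and Hars (0.029). Without naive knockout mouse 4, Farsb passed (0.59, adjusted p = 0.0421). Beside these estimates, 5 of 12 B-cell markers and 3 of 10 myeloid markers were lower in naive knockout than in naive wild-type cells, among them H2-Ab1 by a difference of -1.54 and S100a9 by -0.94. Their part in the naive differences was not tested.

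**Figure D4:**
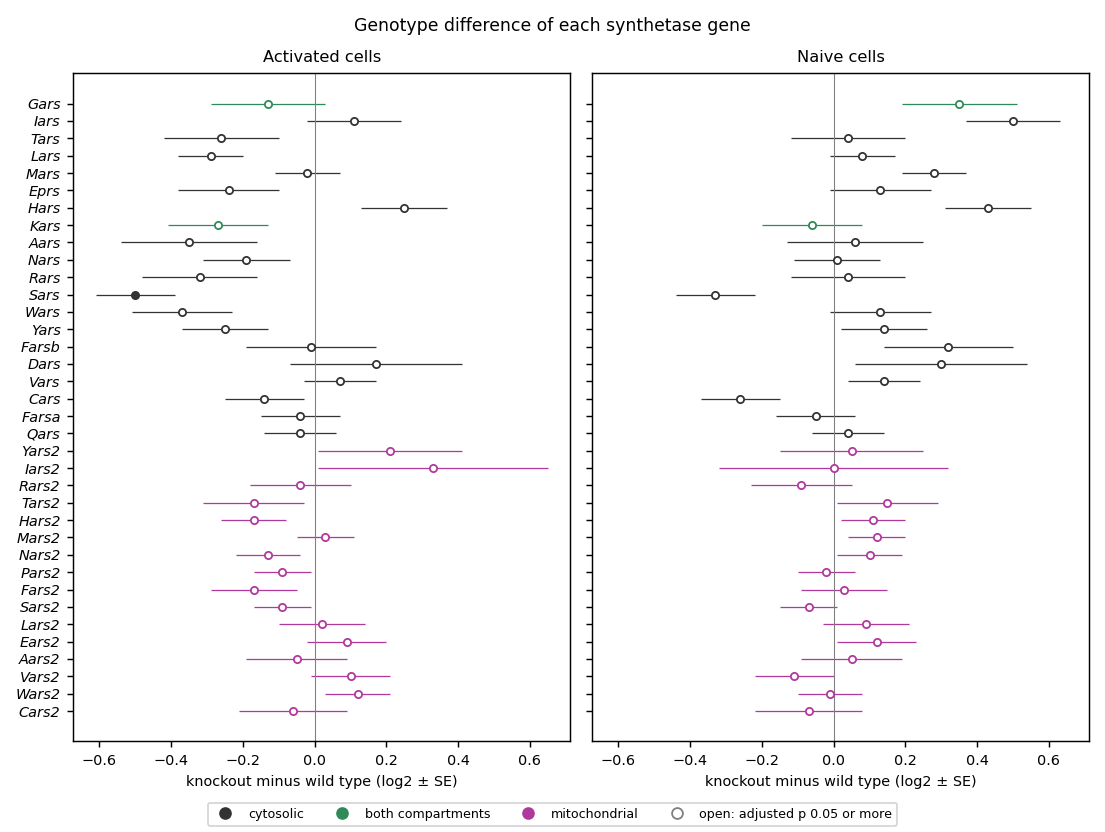
Knockout minus wild-type difference (log2, with SE) of 36 members in activated cells (left) and naive cells (right); filled points passed at an adjusted p under 0.05. Only Sars in activated cells is filled, at -0.50, and the genes of cytosolic or dual enzymes lie mostly left of 0 in activated cells and right of 0 in naive cells.

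The activation responses of the genotypes share no arrays and were set side by side gene by gene. Across genes, which are not independent replicates, Pearson's r was 0.98 over the 37 members, 0.98 over the 20 genes of cytosolic or dual enzymes and 0.91 over the 17 mitochondrial genes, and Spearman's rho was 0.95, 0.95 and 0.65 over the same sets. Without Yars2 and Iars2, left out after their values were seen, the mitochondrial r was 0.58, and Yars2 was the 1 mitochondrial gene that rose in both genotypes. The knockout response was the smaller for 28 of 37 members and for 18 of the 20. The median difference was -0.30 in the 20, -0.03 in the mitochondrial genes and 0.012 over all genes. No share of all genes was set beside these counts. Relative to the naive wild-type means, the median of the 20 genes lay at 1.59, 1.41 and 1.37 in activated knockout arrays. In activated wild-type arrays it lay at 1.90, 1.44 and 1.69, so that wild-type mouse 2 fell within the knockout range. No single difference between responses passed (limma interaction, smallest adjusted p = 0.309, for Lars at -0.37 ± 0.13), against 0.868% of all genes, and 6 of 37 members had an unadjusted p under 0.05, against 9.81% of all genes.

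The largest estimates over the chosen probe sets were those of Wars, Gars and Aars. Wars, the tryptophanyl enzyme, which is induced by interferon gamma in human cells, read 3.44, 3.51 and 3.46 in activated knockout, 3.84, 4.03 and 3.65 in activated wild-type, 2.95, 2.56 and 2.76 in naive knockout and 2.91, 2.29 and 2.69 in naive wild-type arrays. The genotypes did not overlap in activated cells and overlapped in naive cells, with responses of 0.71 ± 0.14 in knockout and 1.21 ± 0.14 in wild-type cells and an interaction of -0.50 ± 0.20 (adjusted p = 0.416). The interaction was -0.49 ± 0.23 for Gars (adjusted p = 0.514). Aars read 4.49, 4.25 and 3.69 in activated knockout, 4.81, 4.07 and 4.61 in activated wild-type, 2.82, 2.74 and 2.51 in naive knockout and 2.52, 2.74 and 2.62 in naive wild-type arrays. Its activated groups overlapped, and the interaction was -0.41 ± 0.27 (adjusted p = 0.705). The other Wars probe sets gave interactions of -0.18, -0.18 and -0.11 and the second Aars probe set -0.15 ± 0.25. In the amino acid response list, Psat1 had a smaller response in knockout cells (interaction -0.72 ± 0.16, adjusted p = 0.0475).

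Several members were measured by more than 1 probe set, and these did not always give the same size. Of the 39 probe sets of cytosolic or dual enzymes, 31 were higher in activated knockout and 34 in activated wild-type cells, and of the 31 mitochondrial probe sets 6 were higher in activated knockout cells, while 2 were higher and 1 lower in activated wild-type cells. No gene had probe sets called in opposite directions. The remaining Aars probe set rose by 2.65 ± 0.18 in knockout and 2.80 ± 0.18 in wild-type cells, and both Aars probe sets carry the deposited antisense mark. A further Wars probe set rose by 2.01 ± 0.14 in knockout and 2.19 ± 0.14 in wild-type cells. The 8 that did not pass in knockout cells were 1 each of Cars (-0.13), Farsa (-0.09) and Eprs (-0.03), a pair of Farsb (0.01 and 0.19) and 3 of Qars (-0.04, 0.07 and 0.26). The 5 that did not pass in wild-type cells were among these: those of Cars (-0.07), Farsa (-0.18) and Eprs (-0.02), 1 of Farsb (-0.15) and 1 of Qars (0.01). Among mitochondrial genes, a second probe set of Fars2 (0.42 ± 0.09), Tars2 (0.53 ± 0.15) and Iars2 (0.71 ± 0.22) was higher in activated knockout cells, and one of Ears2 was lower in activated wild-type cells (-0.23 ± 0.08, adjusted p = 0.0426 over all probe sets).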

How the data were processed

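The values are log2 intensities that the authors made with RMA from perfect-match probes, per the file headers and the submitters' processing notes, and deposited for 12 Affymetrix HT mouse perfect-match arrays. A deposited column of another kind marks probe sets that match the antisense strand. Deposited annotation notes name cross-hybridization for many of the probe sets used. Among the 8 largest wild-type rises, these were those of Gars, Tars, Lars, Mars and Eprs, and not those of Iars, Hars and Kars. The part of cross-hybridization in the results was not tested. For every gene, the brightest probe set assigned to that gene alone was kept (highest mean over all arrays), giving 20962 genes. The 12 arrays were fitted together in limma 3.58.1 (R 4.3.3), estimating group means and moderating the variances (eBayes). P-values were two-sided and adjusted by Benjamini-Hochberg over all genes, at a threshold of 0.05. In simulated data, 96% of genes changed by a log2 of 1 were recovered. The simulation changed 200 genes in activated wild-type arrays, fewer than changed with activation here. Genotype and interaction estimates of members lay between -0.50 and 0.50, a size to which this recovery does not apply. Array number limits the precision; no detection calls were used. Naive and activated arrays of a mouse come from the same animal, so the numbers pair them. Deviations from group means correlated at 0.04, -0.10, 0.05, 0.13, -0.05 and 0.07 in mice 1 to 6. The fit without the block is given, and 19 alternatives were run. Per-array values are given for the 8 largest and 3 smallest wild-type activation differences, for members that passed between genotypes, and otherwise for the 3 largest differences, with Dars, Iars2, Rars2 and Yars2 added after their values were seen. Listed pathway genes are the largest passing ones and, with markers and Tarsl2, those behind small counts, also named after their values were seen. Members and lists were chosen with earlier results of these data known. Motifs were searched in RefSeq promoters. The values of 1 member are not reported here by name or drawn, and it stays in the counts.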

Additional observations from a re-analysis of the deposited data

Results flagged for a closer look

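Psat1, an enzyme of serine synthesis in the amino acid response list, had an activation response that differed between genotypes by a test of the difference itself. It read 6.10, 6.02 and 6.20 in activated knockout, 6.47, 6.33 and 6.47 in activated wild-type, 2.33, 2.69 and 2.72 in naive knockout and 2.05, 2.12 and 2.34 in naive wild-type arrays. The rise was 3.53 ± 0.11 in knockout and 4.25 ± 0.11 in wild-type cells, and the response of knockout minus that of wild type was -0.72 ± 0.16 (SE, limma interaction, adjusted p = 0.0475). No synthetase gene passed this test. The Psat1 call was not followed under the 19 alternatives.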

How the results depend on the processing

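Counts in this section are limma calls at an adjusted p under 0.05, and class counts of cytosolic or dual and of mitochondrial genes were added after seeing the data. Of 50 results for named members, 43 kept their direction and their side of the threshold under every alternative run, and none reversed. The 50 hold every activation result that passed in the fit given and the Sars result in activated cells. They also hold the 3 largest differences in naive cells and the 3 largest of the interaction. Results outside the 50 could pass under an alternative. Activation results of Iars2, Rars2, Tars2, Wars2 and Cars2, the naive result of Farsb and the activated genotype result of Wars did so. There were 19 alternatives, and 3 results, those of Aars, have no value without antisense-marked probe sets. With the mouse as a replicate block, 1 gene was lower in activated wild-type cells (Wars2; 0 without the block) and 2 mitochondrial genes were higher (1 without); beyond Rars2, Wars2 and, in knockout cells, Iars2, the pairing changed no call of a member. Mitochondrial genes higher in activated wild-type cells numbered 2 with centred arrays, 2 with only bright genes and 4 with only the arrays compared (Yars2, Rars2, Iars2 and Tars2), and in knockout cells, against 2, they numbered 3 (Iars2 added) with centred arrays, bright genes, the intensity trend, the mean of probe sets or the mouse block, and 1 with only the arrays compared. In naive cells 1 member was higher with an intensity trend and robust variances. Members lower in activated knockout than wild-type cells numbered 0 with only the arrays compared and 2, Sars and Wars, with the mean of all probe sets. The median over members was 0.82 (centred), 0.59 (mean of probe sets) and 0.75 (no antisense-marked sets) for knockout activation, against 0.79. It was 0.87 (bright genes) and 0.49 (mean of probe sets) for wild-type activation, against 0.74. For activated genotype it was -0.09 (bright genes) against -0.06, and for the interaction -0.20 (centred) and -0.10 (mean of probe sets) against -0.17. The causes of these shifts were not tested.

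Leaving out 1 array at a time gave the following ranges. For knockout activation, 0 to 1 member was lower (1, Cars2, without activated wild-type mouse 1), 1 to 3 mitochondrial genes were higher and 0 to 1 lower, and the median was 0.60 to 0.79. For wild-type activation, 0 to 1 member was lower, all mitochondrial (Cars2 without activated wild-type mouse 1, Wars2 without mouse 2), and 1 to 3 mitochondrial genes were higher: Rars2 was added without naive wild-type mouse 2 or activated knockout mouse 5, and Rars2 and Iars2 without activated knockout mouse 6. In naive cells 0 to 2 members were higher in knockout. In activated cells 0 to 1 was lower, with a median of -0.10 to -0.03, and the median interaction was -0.18 to -0.10.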

Other observations

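Tarsl2, a threonyl synthetase-like gene whose symbol lies outside the naming rule, averaged 0.67 in activated knockout and 0.48 in activated wild-type arrays, and 0.41 in naive knockout and 0.48 in naive wild-type arrays. It was higher in activated than naive knockout cells (0.26 ± 0.09, adjusted p = 0.0435) and differed by 0.00 ± 0.09 in wild-type cells; the difference between these responses was 0.26 ± 0.13 and did not pass (adjusted p = 0.529). Its mean lay below the median of all probe sets, 0.942, in each group, so its signal is not shown to be above background.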
